A study of Sus scrofa with 6 samples.

Results

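The SLC2A genes encode the GLUT proteins, the membrane carriers through which hexoses cross into and between compartments of a cell down their concentration gradient. They were examined in 2 muscles of the Min pig, a Chinese local breed: the longissimus thoracis (LT) of the back and the semitendinosus (ST) of the hind limb. The family genes described are SLC2A1, SLC2A3, SLC2A4, SLC2A5, SLC2A8, SLC2A10 and SLC2A12. These 7 genes were chosen on their LT and ST values in the same 6 libraries, so their differences between the muscles are given as a description with no test. Of the 7, 6 had a gene sum, 5 named by Ensembl ID and SLC2A3 by its position. They stand among 25973 genes with a protein-coding transcript, of which 19679 passed the filter of more than 0.1 FPKM in at least 1 library, all 6 of these SLC2A genes among them. FPKM is fragments per kilobase of transcript, scaled to the mapped fragments of the library, so levels of different genes can be set side by side per length. A gene sum is the total FPKM of all transcripts listed under 1 gene ID.

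The muscles came from 3 Min pigs aged 210 days, wild-type by the labels, with 3 LT and 3 ST libraries and no treatment. The libraries are named LT1 to LT3 and ST1 to ST3 after the number in their titles. The labels do not name the animal, and an equal number was taken to mark the same pig, on which all ratios within pigs rest. The study compared the muscles because they differ in meat quality. The summed FPKM of a library ran from 376461 to 404473, and the files give no fragment counts, so the depth behind a single value is unknown. Skeletal muscle genes were abundant in every library: the creatine kinase gene CKM ran from 1807 to 2753 FPKM and the skeletal actin gene ACTA1 from 1768 to 3025 FPKM.

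The ST library of pig 2 stood apart from the other ST libraries in its fibre markers. The summed FPKM of 5 slow fibre genes was 6560, 4289 and 4955 across LT1 to LT3, against 36227, 5671 and 36118 across ST1 to ST3. The sum of 3 fast fibre genes was 25221, 25584 and 19260 in LT, against 4095, 16681 and 1001 in ST. ST2 was thus inside the LT range for the slow sum and nearest to LT for the fast sum. Within the slow list, MYL2, TNNC1 and TNNI1 in ST2 lay inside the LT range. MYL3 (465 FPKM) and TNNT1 (382 FPKM) in ST2 lay above all LT libraries, which reached 293 and 348 FPKM. Without ST2 the number of genes called between the muscles was 1006, against 114 with all 6 libraries.

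In muscle, the classic member of the family is GLUT4, the product of SLC2A4, which sits in intracellular vesicles and moves to the surface membrane after insulin or contraction. GLUT1 and GLUT3 carry glucose independently of insulin, and GLUT12 is a further glucose carrier of muscle that responds to insulin. GLUT5 carries fructose and is best known from the small intestine, whereas GLUT8 and GLUT10 lie largely on internal membranes.

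SLC2A4 had the highest level of the family in both muscles. The gene (ENSSSCG00000023915, Sscrofa11.1, chr12:52628450-52634967, plus strand) reached 47.1, 40.8 and 46.2 FPKM in LT1 to LT3. In ST1 to ST3 it reached 71.2, 75.0 and 102 FPKM. All 3 ST libraries lay above all 3 LT libraries. The mean was 44.7 ± 3.43 FPKM in LT and 82.9 ± 17.1 FPKM in ST (SD, n = 3 each), a ratio of 1.85. Within the pigs the ratio of ST to LT was 1.51, 1.84 and 2.22. On the log2(FPKM + 0.1) scale, the difference of ST minus LT was 0.87 with a standard error of 0.20. It ran from 0.71 to 0.97 when each library was left out in turn.

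SLC2A5 showed the widest gap between the muscles among the 6 gene sums. This fructose carrier gene (ENSSSCG00000039651, chr6:69507825-69535372, minus strand) gave 1.35, 0.993 and 1.39 FPKM in LT1 to LT3. It gave 18.7, 10.4 and 14.8 FPKM in ST1 to ST3. The lowest ST library, ST2, was several times the highest LT library. The mean was 1.24 ± 0.217 FPKM in LT and 14.7 ± 4.13 FPKM in ST (SD, n = 3 each), a ratio of 11.8. Within the pigs the ratio was 13.8, 10.5 and 10.7. The log2 difference was 3.43 with a standard error of 0.26, and leaving out each library gave 3.24 to 3.65. With a pseudocount of 1 in place of 0.1 FPKM it was 2.77.

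**Figure D1:**
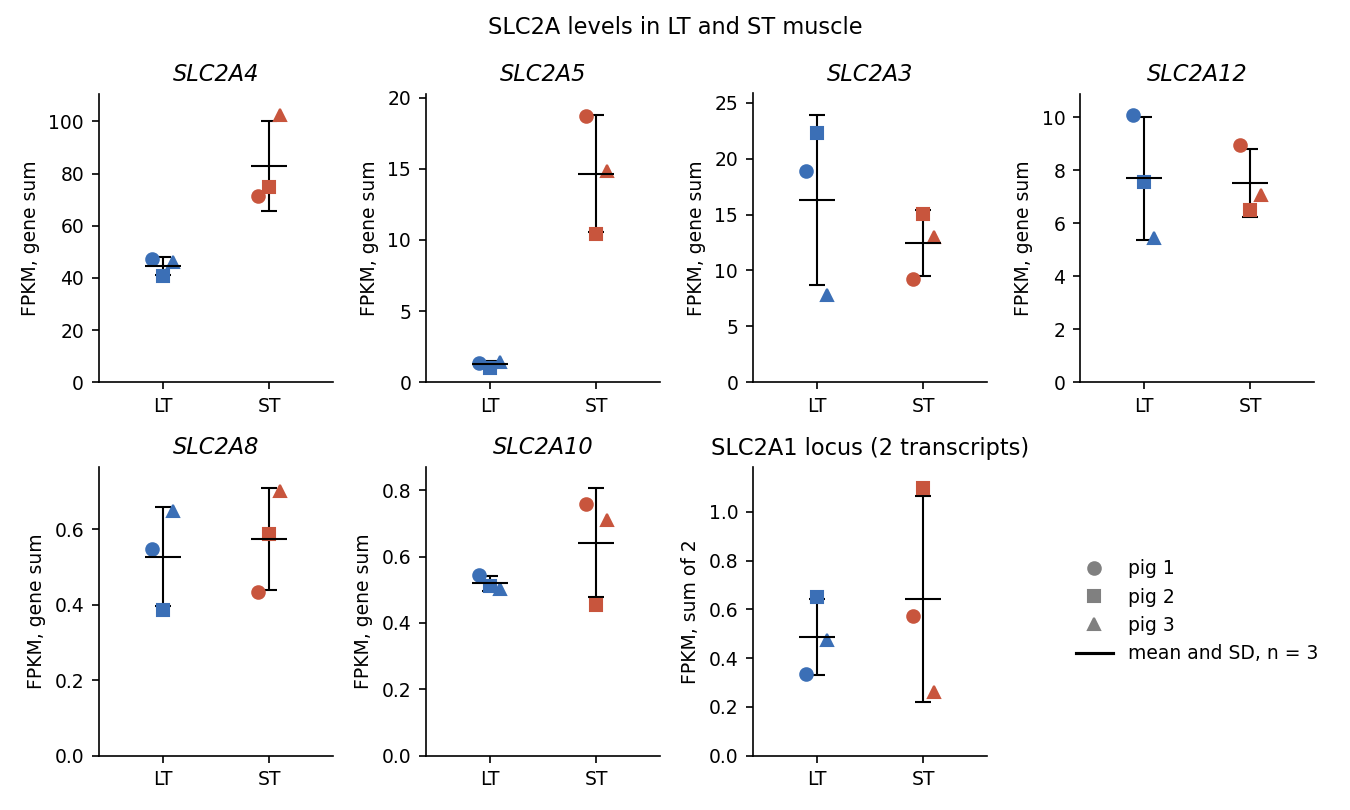
Levels of the SLC2A genes in FPKM (vertical axes, each on its own scale), with LT and ST on the horizontal axes; each point is 1 library, its shape marks the pig, and the bar is the mean with its SD (n = 3). The ST points lie above all LT points for SLC2A4 and SLC2A5, and the muscles overlap for the other genes and for the 2 transcripts at the SLC2A1 locus.

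SLC2A3, which encodes the high-affinity glucose carrier GLUT3 of neurons and some blood cells, was the next highest gene in LT. Its ID (ENSSSCG00000022925, chr5:62963643-63041740, minus strand) carries no symbol in the name table and was matched to SLC2A3 by position in the RefSeq annotation. It measured 18.9, 22.3 and 7.76 FPKM in LT1 to LT3, and 9.27, 15.1 and 13.0 FPKM in ST1 to ST3. The LT libraries spanned the whole ST range. The mean was 16.3 ± 7.60 FPKM in LT and 12.4 ± 2.95 FPKM in ST (SD, n = 3 each). The log2 difference was -0.28 with a standard error of 0.39. It moved between -0.74 and 0.01 when single libraries were left out, and ST was higher in 1 of 3 pigs.

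SLC2A12, the gene of the insulin-responsive carrier GLUT12 (ENSSSCG00000004172, chr1:29836056-29901995, plus strand), was about level in the muscles. It measured 10.1, 7.54 and 5.45 FPKM in LT1 to LT3 and 8.95, 6.50 and 7.08 FPKM in ST1 to ST3. The ST values fell inside the LT range. The mean was 7.69 ± 2.32 FPKM in LT and 7.51 ± 1.28 FPKM in ST (SD, n = 3 each), with a log2 difference of -0.00 and a standard error of 0.25.

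SLC2A8 and SLC2A10 stayed under 1 FPKM in every library. SLC2A8, the gene of the internal hexose carrier GLUT8 (ENSSSCG00000005610, chr1:267925193-267937038, plus strand), gave 0.547, 0.387 and 0.648 FPKM in LT and 0.433, 0.588 and 0.700 FPKM in ST. SLC2A10 (ENSSSCG00000007451, chr17:48824414-48843201, plus strand), whose loss in people causes arterial tortuosity, gave 0.545, 0.512 and 0.503 FPKM in LT and 0.759, 0.454 and 0.711 FPKM in ST. The muscles overlapped for both genes. The log2 difference was 0.11 with a standard error of 0.28 for SLC2A8 and 0.23 with a standard error of 0.26 for SLC2A10.

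SLC2A1, which encodes GLUT1, the basal glucose carrier of many cell types, had no gene sum of its own. Its Ensembl ID in the name table was not among the IDs listed. At its RefSeq span (chr6:168535398-168561170) the transcripts stood under ENSSSCG00000023920, an ID the name table gives to P3H1, a collagen prolyl hydroxylase gene. Of the 6 transcripts under that ID, 2 matched the SLC2A1 span over at least 80% of both spans. A longer transcript, ENSSSCT00000029090, ran across the span and beyond it, at or below 0.0193 FPKM, and was left out. Together the 2 matched transcripts gave 0.335, 0.650 and 0.474 FPKM in LT1 to LT3 and 0.572, 1.10 and 0.259 FPKM in ST1 to ST3. ST held both the highest and the lowest library. The mean of the sum was 0.486 ± 0.158 FPKM in LT and 0.642 ± 0.423 FPKM in ST (SD, n = 3 each). The P3H1 transcript ENSSSCT00000025559 of the same ID was higher, at 3.66 to 4.79 FPKM.

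Called genes were those with a limma adjusted p (Benjamini-Hochberg) under 0.05 and an absolute log2 difference above 1. Of all genes tested, 0.579% were called, 4.26% with the pig as a block and 5.15% without ST2, and 19.0% had an unadjusted p under 0.05. The 6 SLC2A genes with a gene sum held 1 of the called genes, SLC2A5, a count given as a description and not as a test. The log2 difference of SLC2A4 was below 1 in all 16 settings. The LT and ST libraries did not overlap for 2 of the 6 genes and for 24.8% of all genes tested. Since these genes were chosen on the same values, nothing is read from these shares. The median log2 difference over all genes tested was 0.13.

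**Figure D2:**
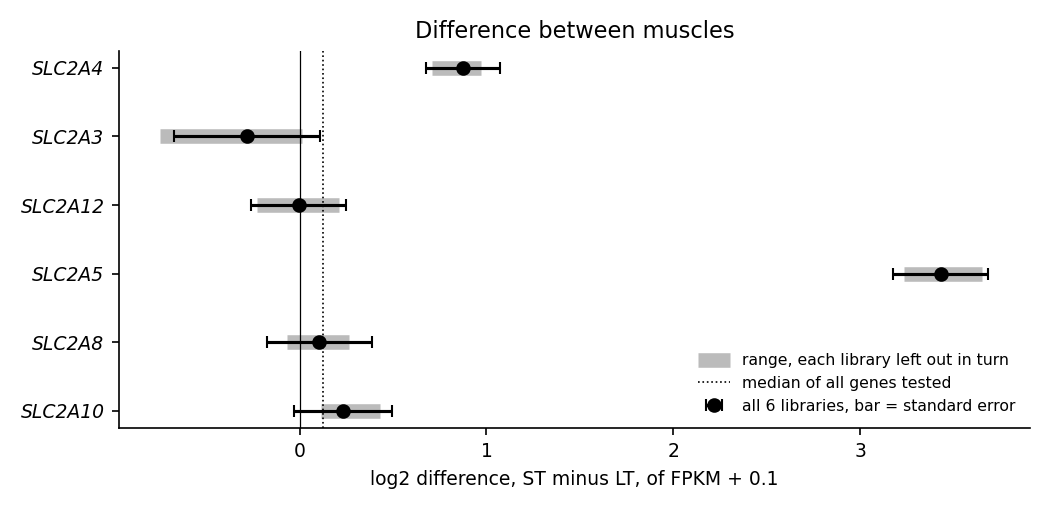
Log2 difference of ST minus LT on the FPKM + 0.1 scale (horizontal axis) for the 6 SLC2A genes with a gene sum; points with black bars are the difference and its standard error over 6 libraries, grey bands are the range when each library is left out, and the dotted line is the median of all genes tested, 0.13. SLC2A5 lies at 3.43 and SLC2A4 at 0.87, while the bands of SLC2A3, SLC2A12 and SLC2A8 reach both sides of 0.

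In LT the order by mean level was SLC2A4, SLC2A3, SLC2A12, SLC2A5, SLC2A8 and SLC2A10. In ST it was SLC2A4, SLC2A5, SLC2A3, SLC2A12, SLC2A10 and SLC2A8. The libraries of SLC2A4 lay above those of every other gene in both muscles. In LT the ranges of SLC2A3 and SLC2A12 overlapped, as did those of SLC2A8 and SLC2A10. In ST the ranges of SLC2A5 and SLC2A3 overlapped, and SLC2A8 and SLC2A10 did too. The place of SLC2A5 in ST therefore does not differ from that of SLC2A3 beyond the spread between libraries.

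The sum of the 12 SLC2A genes with a gene sum was 80.9, 74.8 and 64.9 FPKM in LT1 to LT3 and 112, 111 and 142 FPKM in ST1 to ST3. SLC2A4 took 58.2, 54.5 and 71.2% of that sum in LT and 63.5, 67.5 and 72.1% in ST, so its share overlapped between the muscles although its level did not. SLC2A5 took 1.67, 1.33 and 2.13% in LT and 16.7, 9.40 and 10.4% in ST, without overlap. SLC2A3 took 23.3, 29.8 and 12.0% in LT and 8.26, 13.6 and 9.13% in ST. SLC2A12 took 12.5, 10.1 and 8.40% in LT and 7.97, 5.85 and 4.98% in ST, with all ST libraries below all LT libraries. A share falls when another gene of the sum is higher, and the level of SLC2A12 itself overlapped.

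**Figure D3:**
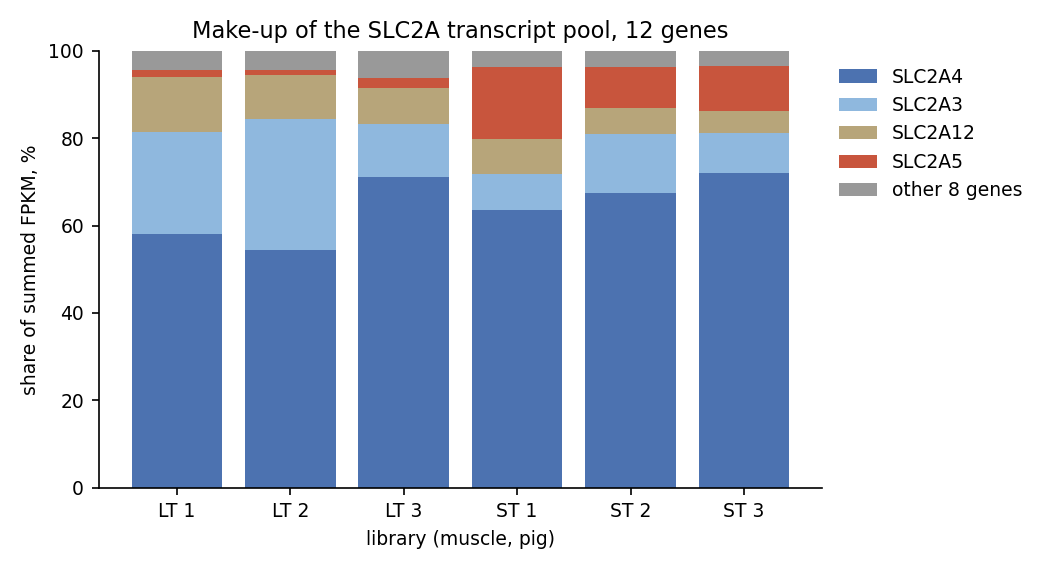
Share of each SLC2A gene in the summed FPKM of the 12 genes (vertical axis, percent), with 1 bar per library named by muscle and pig. SLC2A4 is the largest block in every bar, and the SLC2A5 block grows from 1.33 to 2.13% in LT to 9.40 to 16.7% in ST.

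SLC2A4 was carried by a pair of its 5 listed transcripts. ENSSSCT00000072838, of 1699 bases and 11 exons, gave 23.7, 19.7 and 24.9 FPKM in LT and 39.2, 36.2 and 50.9 FPKM in ST. ENSSSCT00000026401, of 2565 bases and 12 exons, gave 19.0, 18.8 and 21.3 FPKM in LT and 32.0, 38.7 and 43.0 FPKM in ST. Both were higher in every ST library than in any LT library, and together they made up 90.5 to 99.9% of the gene sum. The other transcripts were uneven between libraries: ENSSSCT00000019516 reached 8.52 FPKM in ST3, ENSSSCT00000068270 reached 4.30 FPKM in LT1, and ENSSSCT00000067830 was listed at 0 throughout. SLC2A5 had a single transcript, ENSSSCT00000047255, of 13 exons and 2152 bases.

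The leading transcript of SLC2A12 differed between libraries. ENSSSCT00000050000, which starts at position 29842413, gave 9.27, 6.46 and 4.59 FPKM in LT1 to LT3 and 8.07 FPKM in ST1. In ST2 it was 0.000938 FPKM and in ST3 it was listed at 0. ENSSSCT00000053756, which starts at position 29836056, gave 0.815, 1.07 and 0 FPKM in LT and 0.881, 6.50 and 7.08 FPKM in ST. ST1 thus shared its leading transcript with LT, and ENSSSCT00000053756 led in ST2 and ST3. A further transcript, ENSSSCT00000004611, gave 0.866 FPKM in LT3 and was listed at 0 in the other libraries. The transcripts share their end position, and how the assembly divided fragments between them was not tested. In SLC2A8 the transcript ENSSSCT00000006169 was above 0 in ST3 alone, at 0.166 FPKM.

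**Figure D4:**
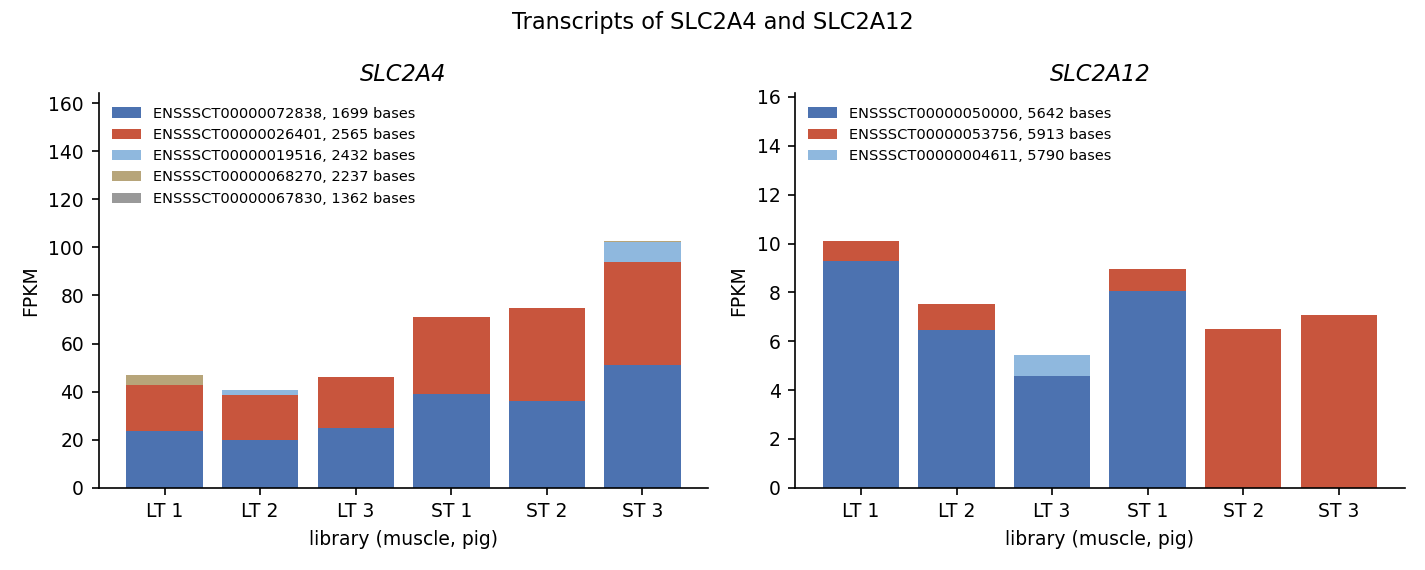
FPKM of each transcript of SLC2A4 (left) and SLC2A12 (right), stacked per library (vertical axes in FPKM, libraries named by muscle and pig on the horizontal axes). For SLC2A4 the same pair fills most of every bar; for SLC2A12 the leading transcript in ST2 and ST3 is ENSSSCT00000053756 and in the other 4 libraries ENSSSCT00000050000.

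Transcripts on the opposite strand overlapped SLC2A3, SLC2A5 and SLC2A12. At the end of SLC2A12 lay a protein-coding transcript, ENSSSCT00000030224, at 3.16 to 3.43 FPKM in LT and 3.93 to 4.54 FPKM in ST. Each unannotated transcript over SLC2A3 or SLC2A12 was at or below 0.592 FPKM. The library kit kept strand, but the strand setting of the assembly is not given in the sources used here, so reads of overlapping transcripts may not have been told apart. Over SLC2A5 lay XLOC_095462, an unannotated mRNA on the plus strand (chr6:69507898-69535607). It gave 0.125, 0.0781 and 0.0893 FPKM in LT and 0.740, 0.416 and 0.500 FPKM in ST, well below SLC2A5 but with the same side higher. Its log2 difference was 1.70 with a standard error of 0.29 (limma, Benjamini-Hochberg adjusted p = 0.0568, 0.0274 with the pig as a block, and 0.0220 to 0.195 over the alternatives).

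Of the genes beside SLC2A5, SLC2A7 was near 0 and GPR157 was lower in the ST libraries. They were looked up within 100000 bp, a window chosen after the values were seen. SLC2A7, an intestinal sugar carrier gene 4093 bp away, had a listed value of 0 throughout LT and gave 0.0116, 0.0114 and 0.0364 FPKM in ST. GPR157, an orphan receptor gene 21083 bp away, gave 37.0, 35.0 and 64.5 FPKM in LT and 10.4, 31.1 and 20.5 FPKM in ST. Its ST libraries all lay below LT, with a log2 difference of -1.21 that did not pass the test (limma, Benjamini-Hochberg adjusted p = 0.165). CA6, a carbonic anhydrase gene, was at or below 0.0337 FPKM, and XLOC_095464, an unannotated mRNA over GPR157, overlapped between the muscles.

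The other family genes were low, and none was called. SLC2A11, a further sugar carrier gene, gave 1.57, 1.42 and 1.26 FPKM in LT and 1.46, 1.56 and 1.54 FPKM in ST. SLC2A13, the gene of a proton-coupled myo-inositol carrier, gave 0.719, 0.777 and 1.51 FPKM in LT and 1.31, 1.32 and 1.73 FPKM in ST. Its log2 difference was 0.55 with a standard error of 0.31 (limma, Benjamini-Hochberg adjusted p = 0.367). SLC2A6 ranged from 0.0983 to 0.158 FPKM. SLC2A2, the gene of the liver and islet glucose carrier, SLC2A7 and SLC2A9, the gene of a urate carrier, were under the filter, at or below 0.0364 FPKM in every library. Of the 3 genes tested, 0 had an unadjusted limma p under 0.05, beside 19.0% of all genes.

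Genes that act with the carriers were taken from lists written down by pathway. The lists were chosen with earlier results of these data known, so their counts are a description. Across these lists, with the 3 other SLC2A genes above, 47 genes were tested and 1 was called, 2.13% beside 0.579% of all genes. With the pig as a block 4 were called, 8.51% beside 4.26%. Without ST2 6 were called, beside 5.15%. An unadjusted limma p under 0.05 was found for 15 of the 47, beside 19.0% of all genes.

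In insulin signalling and GLUT4 vesicle traffic, 23 of 24 listed genes were tested. Of these, 1 was called higher in ST and 0 were called lower, 4.35% beside 0.579% of all genes. Without ST2 4 were called, beside 5.15% of all genes. The log2 difference was above 0 for 14 and below 0 for 9. The median log2 difference was 0.09, beside 0.13 over all genes. The called gene was IRS2, an adaptor that passes the signal from the insulin receptor to phosphoinositide 3-kinase. It gave 3.89, 3.07 and 5.53 FPKM in LT and 10.7, 13.7 and 11.8 FPKM in ST, with no overlap. The log2 difference was 1.55 with a standard error of 0.24 (limma, Benjamini-Hochberg adjusted p = 0.0416, and 0.0249 to 0.170 over the alternatives). TBC1D1, a Rab GTPase-activating protein that holds GLUT4 vesicles back until it is phosphorylated, gave 3.50, 2.97 and 3.33 FPKM in LT and 8.67, 5.23 and 16.7 FPKM in ST. Its log2 difference was 1.46 with a standard error of 0.38 (limma, Benjamini-Hochberg adjusted p = 0.103, 0.0386 with the pig as a block, and 0.0173 to 0.289 over the alternatives). PDPK1, the kinase that activates AKT, differed by 1.03 on the log2 scale (limma, Benjamini-Hochberg adjusted p = 0.139, 0.0370 with the block, and 0.0214 to 0.355 over the alternatives). The insulin receptor gene INSR differed by 0.97 (limma, Benjamini-Hochberg adjusted p = 0.232, and 0.0189 to 0.479 over the alternatives) and was called without ST2, at 1.44. RHOQ, a small GTPase of GLUT4 traffic, differed by 0.73 (limma, Benjamini-Hochberg adjusted p = 0.180). IRS1, the sister adaptor of IRS2, is named because of its values: 33.8, 16.6 and 13.6 FPKM in LT against 10.2, 14.8 and 5.39 FPKM in ST. Its libraries overlapped (log2 difference -1.07, limma, Benjamini-Hochberg adjusted p = 0.233).

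Of the hexose kinases, which trap the sugar after entry, 0 of 5 tested were called, beside 0.579% of all genes. An unadjusted limma p under 0.05 was found for 2, beside 19.0% of all genes. HK2, the insulin-regulated hexokinase of muscle, gave 6.08, 8.68 and 10.8 FPKM in LT and 16.4, 12.6 and 14.6 FPKM in ST. The ST libraries were all above LT, with a log2 difference of 0.79 and a standard error of 0.24 (limma, Benjamini-Hochberg adjusted p = 0.134). HK1 differed by 0.77 (limma, Benjamini-Hochberg adjusted p = 0.186). HK3 differed by 0.55, with overlap between the muscles. KHK, which phosphorylates fructose and is named because SLC2A5 carries fructose, gave 1.49, 1.78 and 2.12 FPKM in LT and 1.45 to 2.01 FPKM in ST. The KHK libraries of the muscles overlapped (log2 difference -0.11, limma, Benjamini-Hochberg adjusted p = 0.833). Of all genes tested, 24.8% did not overlap.

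The remaining lists had 0 called genes, beside 0.579% of all genes. TXNIP and ARRDC4, arrestin-like proteins that remove glucose carriers from the surface, differed by 0.34 and 0.75 on the log2 scale (limma, Benjamini-Hochberg adjusted p = 0.686 and 0.222), and 1 of these 2 had an unadjusted p under 0.05. Of the sodium-coupled and SWEET sugar carriers, 3 of 8 listed genes were tested and all 3 had an unadjusted limma p under 0.05, which 19.0% of all genes had. SLC5A3, the sodium-coupled myo-inositol carrier gene, gave 4.11, 4.50 and 3.10 FPKM in LT and 37.8, 4.01 and 18.7 FPKM in ST. ST2 was again inside the LT range (log2 difference 1.85, limma, Benjamini-Hochberg adjusted p = 0.203, and 0.00669 to 0.413 over the alternatives). Without ST2 the difference was 2.75 and was called, and without ST1 it was 1.15. SLC50A1, the SWEET sugar carrier gene, differed by 0.64 and SLC5A4, of the sodium-coupled glucose carrier family, by 0.79 (limma, Benjamini-Hochberg adjusted p = 0.185 and 0.182).

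Among 11 regulators of SLC2A4 and SLC2A1 transcription 0 were called, beside 0.579% of all genes. An unadjusted limma p under 0.05 was found for 3, beside 19.0% of all genes. With the pig as a block 1 was called, 9.09% beside 4.26%. PPARGC1A, the coactivator of oxidative metabolism, gave 4.49, 5.81 and 3.05 FPKM in LT and 10.5, 68.7 and 23.1 FPKM in ST, without overlap. Its log2 difference was 2.54 with a standard error of 0.60 (limma, Benjamini-Hochberg adjusted p = 0.0859, 0.0280 with the block, and up to 0.236 over the alternatives). Without ST2 it was 1.83 and was called, and without ST1 it was 3.18. HIF1A, the hypoxia-inducible factor that acts on SLC2A1, differed by 0.88 (limma, Benjamini-Hochberg adjusted p = 0.119, 0.0475 with the block, under the fold limit, and up to 0.309 over the alternatives). Of the MEF2 factors that bind the SLC2A4 promoter, MEF2A differed by -0.55 and MEF2C by 0.62 (limma, Benjamini-Hochberg adjusted p = 0.254 and 0.288).

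The genes whose levels followed each carrier most closely over the 6 libraries were found by Pearson's r on the log2 scale among 9528 genes. The libraries fall into 2 muscles, so for SLC2A4 and SLC2A5 any gene that differs between the muscles is favoured, and the values are a description. For SLC2A5 they were EPAS1 (r = 0.998), a hypoxia-inducible factor gene, and PRKD1 (r = 0.997), a protein kinase gene. EPAS1 gave 18.0, 16.6 and 17.3 FPKM in LT and 40.6, 33.1 and 39.0 FPKM in ST. For SLC2A4 they were GGTA1P and NHERF2 (r = 0.992 each), for SLC2A12 PRELID3B (r = 0.984) and NUDT17 (r = 0.980), and for SLC2A3 C7orf50 (r = 0.932) and AP4E1 (r = 0.927).

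Markers of cell types moved with some of these values. In whole muscle, fewer cells of a type and less RNA per cell cannot be told apart. The 5 endothelial markers summed to 76.3, 53.3 and 61.0 FPKM in LT and 172, 118 and 137 FPKM in ST, without overlap, as for SLC2A5, SLC2A4 and 24.8% of all genes. Within the list KDR and CLDN5 overlapped between the muscles, and CLDN5 was higher in ST in 2 of 3 pigs. PECAM1 and CDH5, both junction genes of vessel walls, were called higher in ST, by 1.39 and 1.22 on the log2 scale (limma, Benjamini-Hochberg adjusted p = 0.0424, and 0.0177 to 0.178 over the alternatives, for PECAM1, and 0.0399, and 0.0136 to 0.178, for CDH5). With the pig as a block 3 of the 5 were called, beside 4.26% of all genes. The part of endothelial cells in the SLC2A values was not tested. The slow fibre sum overlapped through ST2, with 0 of 5 markers called, 2 with the block, 5 without ST2, and 5 with an unadjusted limma p under 0.05, beside 0.579, 4.26, 5.15 and 19.0% of all genes. The fast fibre sum was lower in every ST library, with 0 of 3 called, 3 without ST2, and 3 with an unadjusted limma p under 0.05. The mitochondrial genome gave an estimated 2.91 to 4.25% of fragments in LT and 6.15 to 8.48% in ST, and the part of fibre type or mitochondrial RNA in the SLC2A values was not tested. In ST2 the slow sum, 5671 FPKM, was inside the LT range, and the fast sum, 16681 FPKM, was below all LT libraries. Its mitochondrial share (6.15%), SLC2A5 (10.4 FPKM) and SLC2A4 (75.0 FPKM) were above all LT libraries.

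**Figure D5:**
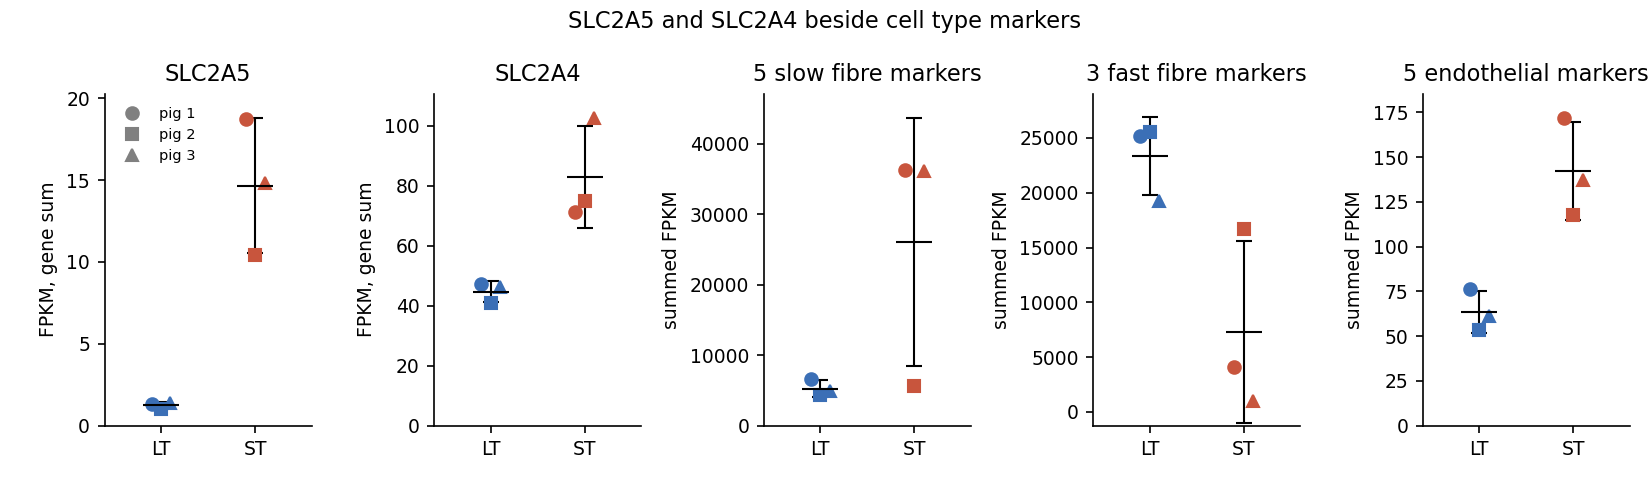
SLC2A5, SLC2A4 and the summed FPKM of 5 slow fibre, 3 fast fibre and 5 endothelial markers (vertical axes in FPKM) in LT and ST; each point is 1 library, its shape marks the pig, and bars are the mean with its SD (n = 3). The ST2 square lies inside the LT range for the slow sum and below LT for the fast sum. It lies above LT for SLC2A5, SLC2A4 and the endothelial sum. Single markers can differ from their sum: in ST2, CLDN5 (4.62 FPKM) was below all LT libraries, and MYL3 and TNNT1 were above them.

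The other marker sums did not separate the muscles, except smooth muscle and the general skeletal muscle list. Their counts stand beside 0.579% of all genes called and 19.0% with an unadjusted limma p under 0.05. Smooth muscle markers summed to 125, 116 and 97.2 FPKM in LT and 167, 135 and 173 FPKM in ST, with 0 of 4 called and 2 with an unadjusted limma p under 0.05. The 6 skeletal muscle fibre genes found, which include the fast gene TNNT3, summed to 14732 to 19267 FPKM in LT and 10436 to 14126 FPKM in ST, with 0 called and 2 with an unadjusted limma p under 0.05. Red blood cell genes summed to 678, 822 and 1056 FPKM in LT and 705, 576 and 1019 FPKM in ST (0 of 6 called, 0 with an unadjusted limma p under 0.05). Leukocyte genes summed to 17.7, 24.3 and 20.4 FPKM in LT and 18.2, 37.8 and 35.1 FPKM in ST (0 of 8 called, 1 with an unadjusted limma p under 0.05). Adipocyte genes summed to 139 to 243 FPKM in LT and 230 to 317 FPKM in ST. Of these 6, 1 was called higher in ST: LPL, a lipase gene that muscle fibres also express (log2 difference 1.41, limma, Benjamini-Hochberg adjusted p = 0.0248, and 0.00886 to 0.113 over the alternatives). The other 5 had log2 differences below 0, against the direction of the sum. LEP, at or below 0.253 FPKM, was lower in every ST library than in any LT library. Of the 6, 2 had an unadjusted limma p under 0.05. Fibroblast genes summed to 571 to 1177 FPKM in LT and 610 to 1111 FPKM in ST, and Schwann cell genes to 8.15 to 31.8 FPKM in LT and 3.03 to 15.7 FPKM in ST, with 0 of 5 called in each and 0 with an unadjusted limma p under 0.05.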

How the data were processed

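RNA of 3 LT and 3 ST muscles was depleted of rRNA and sequenced from strand-preserving paired-end libraries. Reads were trimmed by the authors (SOAPnuke) and aligned by HISAT2 2.1.0 to the genome Sus scrofa 11.1. StringTie then assembled the transcripts, whose FPKM the authors deposited for each library. FPKM are not counts, so count models were not used.

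Here FPKM was summed per gene ID over genes with an mRNA transcript. Of 20288 Ensembl IDs, 14657 were named by ID and 892 by a unique RefSeq position match (Sscrofa11.1, at least 80% of both spans). Genes above 0.1 FPKM in at least 1 library were compared with limma 3.58.1 in R 4.3.3, whose prior variance followed the mean of log2(FPKM + 0.1), two-sided, Benjamini-Hochberg adjusted over all 19679 genes. A gene was called at an adjusted p below 0.05 when its log2 difference also exceeded 1 in size. Tables and plots used Python 3.11.15, pandas 2.3.3, numpy 2.4.6 and matplotlib 3.10.9.

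The study sampled LT and ST from 3 pigs. That libraries with the same number in their titles come from 1 pig was inferred, since the labels do not name the animal. Deviations from the muscle means correlated at 0.301, 0.276 and 0.303 within pigs and at -0.147 on average between pigs. Deviations within a muscle sum to 0, so the negative mean follows from the positive one and is no separate support for the pairing. P-values of the main fit measure the spread between the libraries of a muscle and leave the pairing out. Those with the pig as a block measure the spread of the differences within pigs. Both rest on 3 pigs. The SLC2A genes and the gene lists were chosen with earlier results of these data known. Named were all SLC2A genes, called list genes with up to 4 others of smallest p per list, and the 2 genes most correlated with each carrier of at least 1 FPKM, except for 1 gene that is not reported here. IRS1, KHK and the SLC2A5 neighbours were added after their values were seen. Alternatives were other pseudocounts, filters, scalings and variance models, annotated transcripts alone, the pig as a block, and leaving out each library.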

Additional observations from a re-analysis of the deposited data

How the results depend on the processing

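SLC2A5 kept its direction in all 16 settings, and SLC2A4 too. Of the log2 differences of the SLC2A genes under alternatives, 87 moved by less than the spread between libraries, and 1, SLC2A5 with a pseudocount of 1 was 2.77. The number of genes called by limma was 114 (81 higher in ST and 33 lower), and became 6 without the filter, 838 with the pig as a replicate block, 62 with quantile normalization (33 higher and 29 lower), 272 with FPKM rescaled to nuclear genes and 31 without the variance trend. Leaving out 1 library gave 11 to 1006, the highest without ST2 and 11 to 23 without any other library. SLC2A genes called, a description and not a test, fell from 1 to 0 without the filter, where 6 of all genes were called. Pathway genes called went from 1 to 4 with the block, and to 0 without the filter, with quantile normalization and without the trend, where 12, 11 and 11 had an unadjusted p under 0.05. Leaving out 1 library gave 0 to 6, with 6 without ST2 (IRS2, TBC1D1, PDPK1, INSR, SLC5A3 and PPARGC1A). IRS2 lost its call under those 3 settings and without any library other than ST2. The block added TBC1D1, PDPK1 and PPARGC1A and changed no other call of a named SLC2A or pathway gene. The order of the genes kept 8 to 12 of 12 places, 10 without LT3 and 8 without ST1. SLC2A11 turned to -0.068 with quantile normalization, which moved the median of all genes from 0.13 to -0.01. SLC2A6 was -0.00, and 0.0048 with a pseudocount of 0.01, 0.048 with nuclear rescaling and -0.12 to 0.075 without single libraries. TXNIP ran from -0.024 to 0.80 without single libraries. The cause of these changes was not tested.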
